A study of Mus musculus with 6 samples.

Results

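The genes of the translation initiation and elongation factors were taken from the table of FPKM (fragments scaled to the length of a gene's exons and to all mapped fragments of the library, the unit in which the authors deposited expression) as every gene whose symbol begins with Eif or Eef followed by a digit, with the X-linked and Y-linked genes Eif2s3x and Eif2s3y left out. This gave 63 of 35237 genes, and all 63 were also found in the second table made from the same libraries with ALEXA-Seq, an expression signal on a linear scale whose unit the sources used here do not name. The symbol rule takes in more than the name of the family says, since Eif2c1, Eif2c2, Eif2c3 and Eif2c4 are older symbols of the Argonaute genes Ago1 to Ago4, which act in small RNA silencing. It also takes in the eIF2 kinases and the eIF4E binding proteins, which restrain initiation.

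RNA-Seq libraries had been made from 3 sets of bone marrow monocytes (BMDM) and 3 sets of brainstem microglia (BSM), the resident macrophages of the brain, from C57BL/6 mice aged 6 weeks. BMDM were sorted by FACS as CD11b+ CD45high CD115+ Ly6G- cells and BSM as CD11b+ CD45low CD115low Ly6G- cells, and each library was a pool of cells from several mice, after enrichment on Percoll, with the cDNA amplified before sequencing. Replicate 1 of each cell type was male and replicates 2 and 3 were female. The samples allow 1 comparison, BMDM against BSM. P-values measure only the spread between these 3 pools of a cell type. Values below are listed in the order of replicates 1, 2 and 3, and fold changes are BMDM over BSM on the log2(FPKM + 1) scale, so that a negative value stands for higher expression in BSM and the change of weakly expressed genes is understated.

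Translation begins when eIF2 with GTP carries the initiator tRNA to the small ribosomal subunit, helped by eIF1, eIF1A, eIF5 and the large scaffold eIF3. The eIF4F complex of the cap-binding protein eIF4E, the scaffold eIF4G and the helicase eIF4A brings in the mRNA, and eIF4E binding proteins compete with eIF4G for eIF4E. Stress kinases that phosphorylate eIF2 alpha block its recycling by the exchange factor eIF2B, while elongation depends on eEF1A, which delivers aminoacyl-tRNA, on eEF2, which translocates the ribosome, and on eEF2 kinase, which inhibits eEF2. In macrophages and monocytes these steps are known to respond to nutrient, interferon and stress signals.

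Many mRNAs of ribosomal proteins and of translation factors begin with a C followed by a run of C and T, the 5′ terminal oligopyrimidine or TOP tract, through which mTOR controls their translation. Promoter sequences of RefSeq (GRCm38.p6) were found for 49 of the 63 members, and the letters within 50 bases on either side of an annotated start were searched on the transcript strand for a C that opens a run of at least 8 bases of C or T. Such a run was found for 7 of 10 eIF3 subunit genes (70.0%), for 4 of 8 elongation genes (50.0%, among them Eef1a1 and Eef2k) and for 0 of 8 start codon and ternary complex genes. Relative to the annotated start, the eIF3 runs began between -43 (Eif3c) and 31 bases (Eif3a), with Eif3f at -4 and Eif3l at 4. That of Eef1a1 began at -5 and that of Eef2k at 23. A run counted here was thus not always at the start, where a TOP tract lies. Over all members it was found for 17 of 49 (34.7%), beside 32.0% of 27025 genes in the promoter table, 33.3% of 4167 tested genes and 86.9% of 61 ribosomal protein genes. On the opposite strand the shares were 20.0% for the eIF3 subunits, 32.7% for the members, 35.9% for the tested genes and 21.3% for the ribosomal protein genes. Annotated starts are imprecise, genes with several starts had more chances (1.88 starts per gene in the elongation group, 1.00 in eIF3), and no other motif was searched. Among members with a promoter, a run was found for 12 of 25 called higher in BMDM in the results below, for 1 of 2 called higher in BSM and for 0 of 11 tested and not called, and on the opposite strand for 12, 2 and 2 of them. The windows below show eIF3 subunits with such a run beside members of flat or opposite expression without one at this start. They also show Eef2, a gene called higher in BMDM without a run of at least 8 bases. The Eef2 window does hold a shorter run that opens with C, so its absence from the count rests on the chosen length. Capitals mark the run. Windows with a run begin 5 bases before the run, and windows without it begin 5 bases before the annotated start. The Eif3m run began at -20 and so lies upstream of the annotated start.
Eif3f, GRCm38.p6 chr7:108934406-108934435, plus strand: ctaggCTCTCTCTCTTTCTCggcaagatgg
Eif3l, GRCm38.p6 chr15:79075222-79075251, plus strand: ttccgCTCTCTCCCacgggcttctggagcg
Eif3m, GRCm38.p6 chr2:105017023-105017052, minus strand: caccgCTCTCTTTTCCggtcggcgtgtttc
Eef2, GRCm38.p6 chr10:81176626-81176655, plus strand: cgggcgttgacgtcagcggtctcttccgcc
Eif2s2, GRCm38.p6 chr2:154892882-154892911, minus strand: tggctttactgtacgcctgcgctttggcga
Eef2k, GRCm38.p6 chr7:120842826-120842855, plus strand: gcgtcagtcccgccccagccctggtcccag
Eif2c1, GRCm38.p6 chr4:126468607-126468636, minus strand: gcactggcagctactcgggcgctagcaggg
Eef2k has 3 annotated starts, of which the one farthest downstream had a run of 8 bases. The first 4 of these genes were called higher in BMDM, Eif2s2 was not called, and Eef2k and Eif2c1 were called higher in BSM.

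Summed over all genes, the FPKM of a library came to between 163199 and 194184 in BMDM and between 68288 and 75021 in BSM, so the values as deposited favour BMDM for most genes. The median log2 fold change of the 6364 tested genes, those that reached an FPKM of 3 in 1 library or more, was 0.81 as deposited, 0.14 after scaling to the upper quartile, 0.02 after quantile normalization and -0.23 after scaling every library to the same sum. BSM replicate 1 stood apart, with 23.3% of tested genes under an FPKM of 0.5 against 10.1% and 10.6% in the other BSM libraries, and the study's list of RNA quality gives its RNA the lowest integrity and concentration of the sets. All 8 microglia markers were called higher in BSM (summed 883 to 1009.8 FPKM against 17.8 to 20.1 in BMDM) and all 7 monocyte markers higher in BMDM (1674 to 3136 FPKM against 6.26 to 7.52 in BSM). In the BMDM libraries, 7 granulocyte and progenitor genes led by Mpo summed to 48.8, 346 and 90.1 FPKM, where the BSM libraries lay at 0.0714 or less, with all 7 at 0 in 2 of them. The 5 proliferation genes, led by Mki67, summed to 211 to 264 FPKM in BMDM and at most 1.27 FPKM in BSM. Neuron genes summed to at most 0.249, endothelial genes to at most 1.42 and lymphocyte genes to at most 3.53 FPKM in any library. Oligodendrocyte genes summed to 7.06 to 12.8 FPKM in BMDM and 1.78 to 2.13 in BSM, erythroid genes to 6.81 to 38.5 and at most 0.158, and astrocyte genes, nearly all of it Slc1a3, to at most 0.102 and 5.31 to 9.52 FPKM. The part of these other cells and of the cell cycle in the differences below was not tested, and fewer cells of a type and less RNA per cell cannot be told apart in such pools.

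Translation factor genes were mostly higher in BMDM in FPKM as deposited, while their summed share of all FPKM was higher in BSM. The 63 members summed to 1018, 1240.3 and 1122 FPKM in BMDM and to 503, 528 and 477 FPKM in BSM, a ratio of group means of 2.24 where all genes together had a ratio of 2.50. They made up 0.624%, 0.639% and 0.647% of the FPKM of the BMDM libraries and 0.728%, 0.704% and 0.699% of the BSM libraries, so that every BSM library lay above every BMDM library. Gene by gene, with every library scaled to the same sum, 32 of the 49 tested members still had a positive log2 fold change, with a median of 0.29 beside -0.23 over all tested genes. Of the 63 members, 54 had a higher mean log2 value in BMDM, 8 in BSM, and Eif4e1b was listed at 0 in all libraries. The same count was not made for all genes. As deposited, the median log2 fold change was 0.81 over the 6364 tested genes and 0.03 over the 21167 genes above 0 in any library. The 49 members that passed the FPKM minimum had been let in by their highest library, with Eif3d the lowest inside (highest value 3.10 FPKM) and Eif1ad the highest outside (2.86 FPKM).

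Of these 49 members, 34 were called higher in BMDM and 2, Eef2k and Eif2c1, higher in BSM by limma at an adjusted p under 0.05 (Benjamini-Hochberg over 6364 genes). Among all tested genes 45.3% were called toward BMDM and 9.22% toward BSM, 54.5% in all. The median log2 fold change was 1.28 over the 49 members and 0.81 over all tested genes. The libraries of both cell types did not overlap for 34 members with BMDM above and 2 with BSM above, nor for 66.8% of all tested genes in either direction. The split depended on scaling. Quantile normalization left 17 members called toward BMDM and 5 toward BSM, beside 21.7% and 19.3% of all tested genes. Scaling to the same sum left 6 and 8 (12.2% and 16.3% of the 49), beside 15.2% and 24.9% of all tested genes. ALEXA-Seq values, tested in the same way for as many genes, gave 30 members toward BMDM and 3 toward BSM of 48 tested, beside 37.1% and 10.9% of all tested genes, and 30 members were called in the same direction in both tables.

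The sign of the fold change held under all 4 scalings for 38 of the 49 members, 32 toward BMDM and 6 toward BSM, and it changed for 11. Eif3h, Eif3k, Eif4b, Eif4e3, Eif5a and Eif5al3 were called higher in BMDM under every one of the 4, and Eef2k and Eif2c1 higher in BSM. The shares of all tested genes that met these conditions were not computed. With the same sum of FPKM alone, 15.2% of all tested genes were called toward BMDM and 24.9% toward BSM. A rank within a library is free of any scaling. By rank among the tested genes, 24 of the 49 members lay higher in every BMDM library than in any BSM library, where 29.1% of all tested genes did. The opposite held for 7 members (Eef2k, Eif2c1, Eif2c3, Eif2s2, Eif4a1, Eif4a2 and Eif4e2) and for 26.8% of all tested genes.

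**Figure D1:**
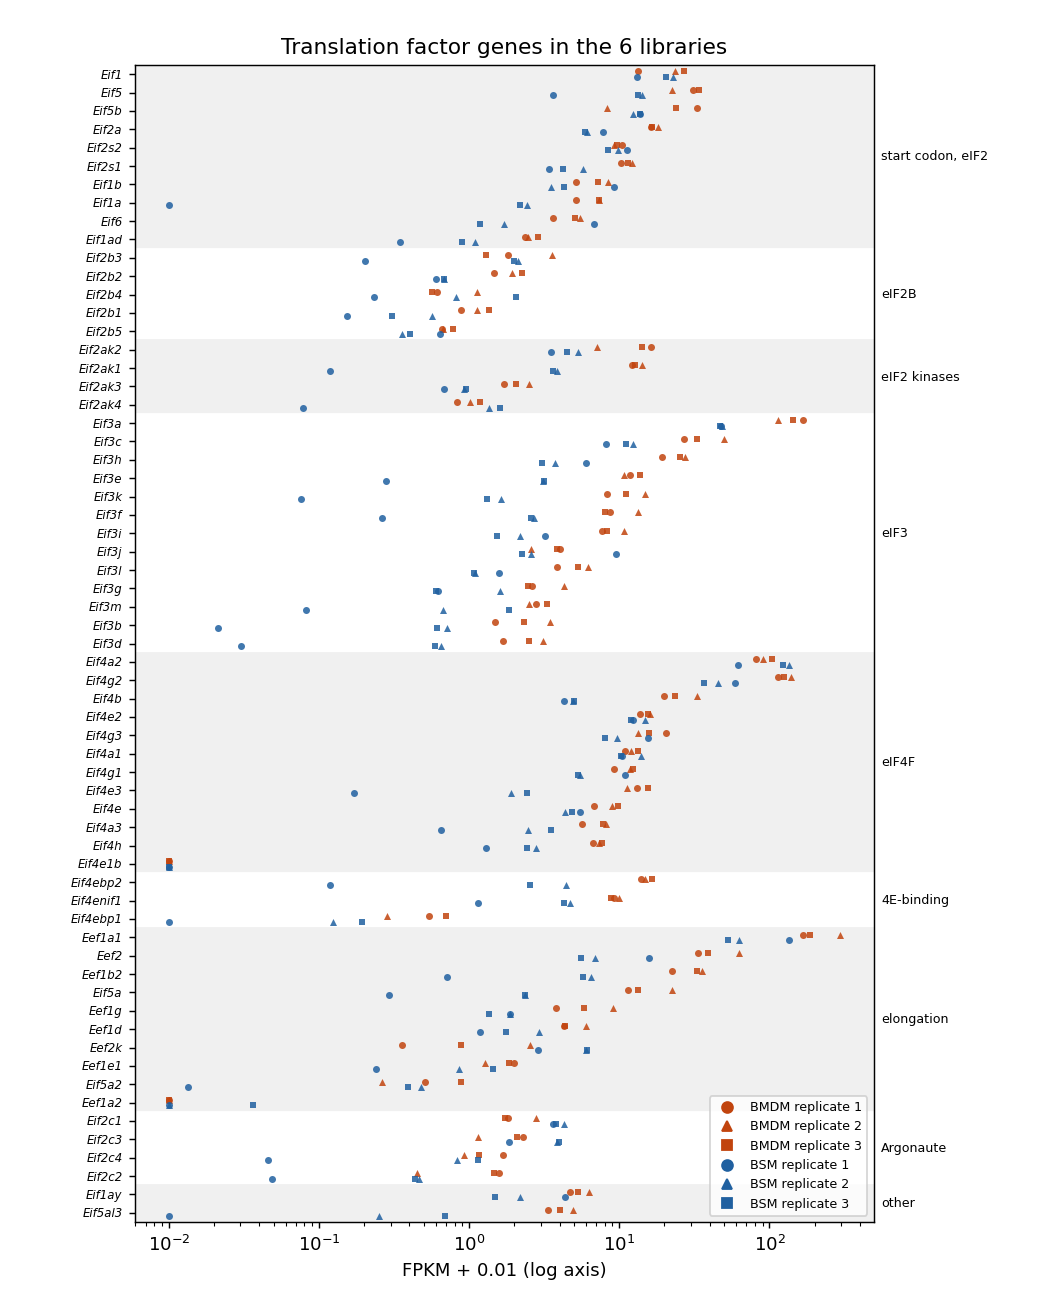
FPKM + 0.01 of the 63 members in each library on a log axis, grouped by role, with BMDM in orange, BSM in blue and a marker shape for each replicate. BSM replicate 1 (blue circles) lies far to the left for members such as Eif3k and Eif4ebp2 and to the right of the other BSM libraries for Eif3j and Eif6.

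**Figure D2:**
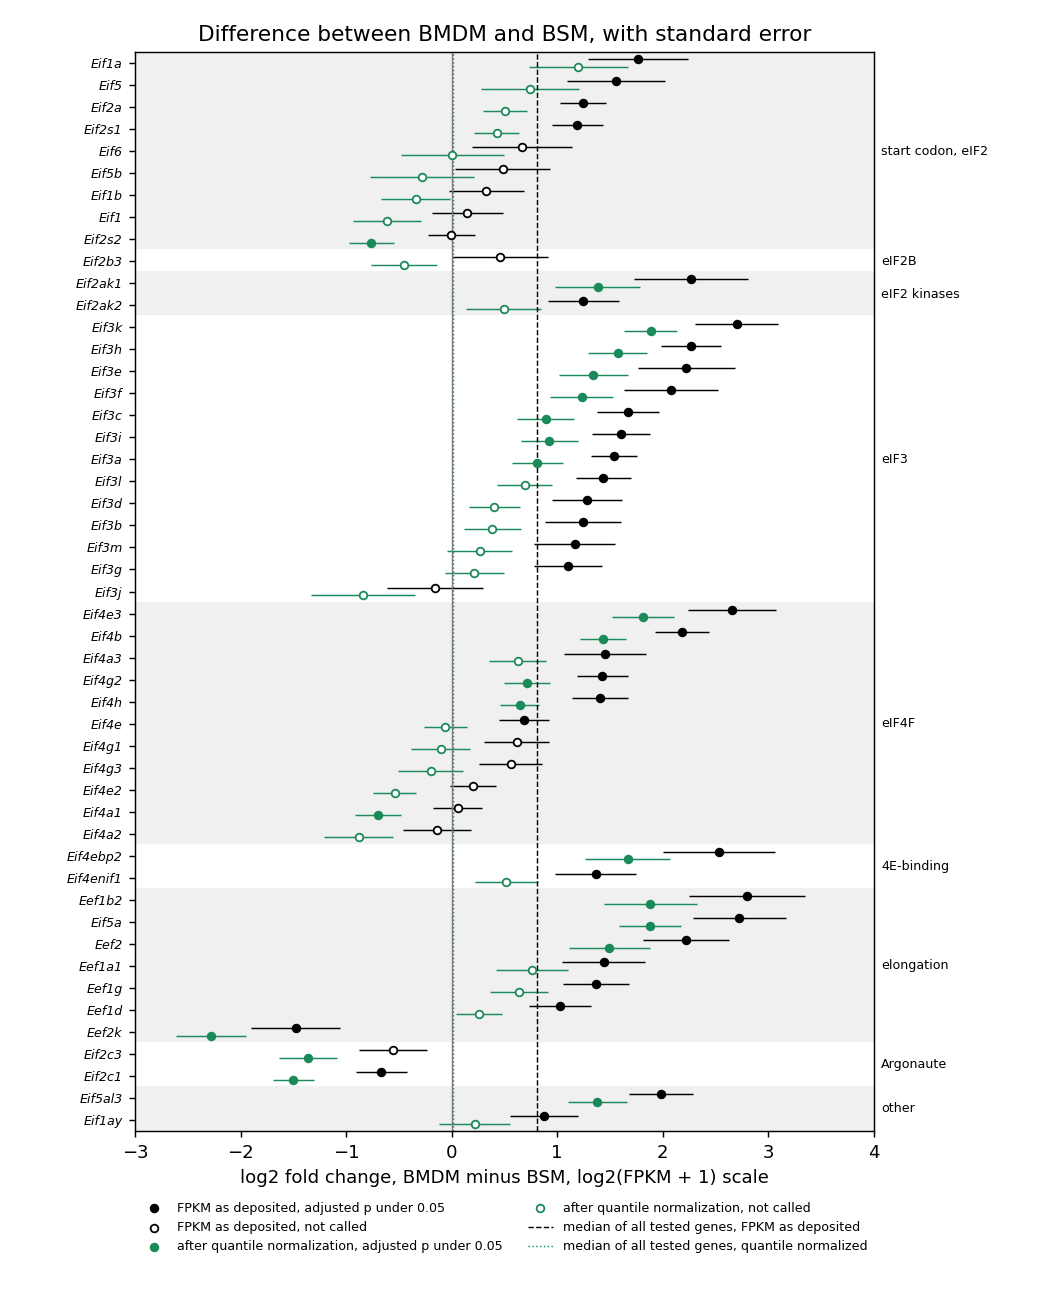
Log2 fold change of BMDM over BSM with its standard error for the 49 tested members, as deposited (black) and after quantile normalization (green), filled where the limma adjusted p is under 0.05. The dashed line is the median of all tested genes as deposited, 0.81, and most eIF3 subunits lie to its right while Eef2k, Eif2c1 and Eif2c3 lie left of 0.

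Translation elongation carried both the most abundant member and the one that moved furthest toward BSM. Eef1a1 (chr9:78326256-78336958 in mm9, the build in the submitters' processing notes), the gene of eEF1A, was at 167, 295 and 187 FPKM in BMDM and 135, 62.5 and 53.1 in BSM, and the BMDM libraries lay above the BSM libraries (log2 fold change 1.44, standard error 0.39, limma adjusted p = 0.0161). It was not called after quantile normalization (adjusted p = 0.117) or without BMDM replicate 2 (0.0663), and 9 annotated near-identical copies could share its reads. Eef2 (chr10:80639391-80645240), the translocase, was at 33.4, 62.6 and 38.8 FPKM in BMDM and 15.7, 6.90 and 5.52 in BSM, with no overlap (log2 fold change 2.22, standard error 0.41, limma adjusted p = 0.00286). BMDM replicate 2 was the highest library for either gene and BSM replicate 1 the highest of its group. Eef1b2, an exchange factor of eEF1A, was at 22.3, 35.5 and 32.9 FPKM in BMDM and 0.706, 6.42 and 5.73 in BSM (log2 fold change 2.80, standard error 0.55, limma adjusted p = 0.00400). Eif5a, the hypusine-bearing factor that frees stalled ribosomes, was at 11.4, 22.4 and 13.4 FPKM in BMDM and 0.284, 2.35 and 2.34 in BSM (log2 fold change 2.73, standard error 0.44, limma adjusted p = 0.00155). In both genes BSM replicate 1 was the lowest library by far, and both stayed called without it (limma adjusted p = 0.000533 and 0.00100), with the log2 fold change of Eef1b2 at 2.12. The exchange factor subunits Eef1g and Eef1d differed less. Eef1g was at 3.78, 9.04 and 5.85 FPKM in BMDM and 1.85, 1.86 and 1.34 in BSM (log2 fold change 1.37, standard error 0.31, limma adjusted p = 0.00784), and Eef1d at 4.29, 6.03 and 4.33 FPKM in BMDM and 1.17, 2.92 and 1.74 in BSM (log2 fold change 1.03, standard error 0.29, limma adjusted p = 0.0195). Neither was called after quantile normalization, and Eef1d lost its call without BMDM replicate 2 or 3 or BSM replicate 3 (limma adjusted p from 0.0575 to 0.0735). Summed over the 10 elongation genes the libraries held 245, 435 and 286 FPKM in BMDM and 158, 90.4 and 77.7 FPKM in BSM. BMDM replicate 2, with the highest elongation sum, was also the library with 346 FPKM of granulocyte and progenitor genes, and the part of those cells was not tested.

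Eef2k (chr7:127986345-128050733), the kinase that inhibits eEF2, went the other way. It was at 0.348, 2.51 and 0.878 FPKM in BMDM and 2.87, 6.03 and 6.08 in BSM, so that even the lowest BSM library lay above the highest BMDM library. The means were 1.25 ± 1.13 FPKM (SD, n = 3) in the BMDM libraries and 4.99 ± 1.84 FPKM (SD, n = 3) in the BSM libraries, 4.01 times as high in BSM (log2 fold change -1.48, standard error 0.42, limma adjusted p = 0.0190). By rank it stood at percentiles 4.42, 16.4 and 6.90 in BMDM and 51.3, 70.5 and 72.0 in BSM among the tested genes. ALEXA-Seq also placed every BSM library above every BMDM library, with values of 5.14, 23.4 and 8.31 in BMDM and 39.7, 97.5 and 78.5 in BSM (log2 fold change -2.61, limma adjusted p = 0.0132). The call as deposited was lost when BMDM replicate 1 or 3 or BSM replicate 2 or 3 was left out (limma adjusted p from 0.0574 to 0.0721) and was kept after quantile normalization (log2 fold change -2.28, adjusted p = 0.00128). With no FPKM minimum it was lost as well (adjusted p = 0.0721). Its span overlaps another gene with an FPKM of at least 1, and since the sources used here do not say whether strand was used in counting, the 2 may share reads. Of the other elongation genes, Eef1e1 stayed between 0.232 and 1.98 FPKM, with its groups overlapping. Eef1a2, the form of eEF1A in neurons and muscle, was listed at 0 in all libraries but BSM replicate 3, where it had 0.0262 FPKM. The second eIF5A gene, Eif5a2, was at 0.497, 0.253 and 0.867 FPKM in BMDM and 0.00333, 0.469 and 0.383 in BSM, so its groups overlapped.

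Genes of the eIF3 scaffold were called higher in BMDM for 12 of 13 subunits, all 13 of which passed the FPKM minimum, beside 45.3% of all tested genes. After quantile normalization 7 of the 12 remained called higher in BMDM, beside 21.7% of all tested genes. With the same sum of FPKM only Eif3h and Eif3k did, beside 15.2%. Eif3a, Eif3e and Eif3f were not called with upper quartile scaling either (limma adjusted p = 0.0618, 0.0532 and 0.0569). The median log2 fold change of the 13 subunits was 1.54 as deposited and 0.81 after quantile normalization. The sign of the 12 was the same under all 4 scalings, a count not made for all tested genes. Summed over the 13 genes the libraries were close within a group, at 266, 263 and 263 FPKM in BMDM and 77.0, 80.8 and 76.8 FPKM in BSM. Much of that sum was Eif3a, the largest subunit, at 167, 114 and 144 FPKM in BMDM and 47.3, 48.0 and 47.1 in BSM (log2 fold change 1.54, standard error 0.22, limma adjusted p = 0.000944). The 3 BSM values of Eif3a differed by less than 1 FPKM. Eif3h was at 19.3, 27.4 and 25.4 FPKM in BMDM and 6.01, 3.74 and 3.06 in BSM, without overlap (log2 fold change 2.27, standard error 0.28, limma adjusted p = 0.000491). Eif3k was at 8.23, 14.9 and 11.0 FPKM in BMDM and 0.0654, 1.61 and 1.305 in BSM (log2 fold change 2.70, standard error 0.39, limma adjusted p = 0.000983), with BSM replicate 1 near 0. The same library was far below its group for Eif3e, which was at 11.8, 10.8 and 13.7 FPKM in BMDM and 0.268, 3.09 and 3.16 in BSM (log2 fold change 2.23, standard error 0.46, limma adjusted p = 0.00504). Eif3f was at 8.63, 13.4 and 8.00 FPKM in BMDM and 0.253, 2.68 and 2.57 in BSM (log2 fold change 2.08, standard error 0.45, limma adjusted p = 0.00590). With BSM replicate 1 left out, Eif3k, Eif3e and Eif3f stayed called (limma adjusted p = 0.000623, 0.000490 and 0.00222). Other called subunits, Eif3b, Eif3c, Eif3d, Eif3g, Eif3i, Eif3l and Eif3m, had log2 fold changes from 1.10 to 1.67. Eif3j, a loosely bound subunit with a near-identical second gene, was the exception at 4.02, 2.57 and 3.85 FPKM in BMDM and 9.44, 2.57 and 2.25 in BSM, where BSM replicate 1 was the highest of all libraries and the groups overlapped (log2 fold change -0.16, adjusted p = 0.782).

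Factors of the start codon and the ternary complex were split between called and flat genes. Of 9 tested, 4 were called higher in BMDM as deposited, near the share of 45.3% among all tested genes. Their group had a median log2 fold change of 0.67, beside 0.81 over all tested genes. After quantile normalization none was called higher in BMDM and 1, Eif2s2, higher in BSM, beside 21.7% and 19.3% of all tested genes. Eif5, which triggers GTP hydrolysis on eIF2, was at 30.8, 22.3 and 33.8 FPKM in BMDM and 3.63, 14.2 and 13.3 in BSM (log2 fold change 1.56, standard error 0.47, limma adjusted p = 0.0232), without overlap. Eif1a, which opens the mRNA channel of the small subunit, was at 5.17, 7.31 and 7.29 FPKM in BMDM and 0, 2.44 and 2.16 in BSM (log2 fold change 1.76, standard error 0.47, limma adjusted p = 0.0155). Neither was called after quantile normalization. Eif5 lost its call without any 1 of the BMDM libraries (limma adjusted p from 0.0511 to 0.0848) and Eif1a without BMDM replicate 2 or 3 (0.0656 and 0.0620). Eif2a, an alternative carrier of the initiator tRNA, was called as well (log2 fold change 1.24), in a span shared with Serp1. Eif1, the factor that guards against wrong start codons, was at 13.3, 23.6 and 27.1 FPKM in BMDM and 13.2, 22.8 and 20.6 in BSM, with overlap (adjusted p = 0.729). Its sign turned from 0.15 as deposited to -1.11 after scaling to the same sum, where it was called higher in BSM (limma adjusted p = 0.0263). ALEXA-Seq called it higher in BMDM (log2 fold change 0.72, limma adjusted p = 0.0334). For Eif1, 12 annotated copies could share its reads. Eif1b, its close relative, was at 5.18, 8.40 and 7.18 FPKM in BMDM and 9.15, 3.49 and 4.27 in BSM, also overlapping. Eif5b, which joins the ribosomal subunits, was at 33.1, 8.29 and 23.8 FPKM in BMDM and 13.6, 12.4 and 13.7 in BSM, with BMDM replicate 2 the lowest of all libraries. Neither Eif1b nor Eif5b was called with all libraries, and both turned negative under the other 3 scalings (Eif1b from 0.33 to -0.34 and Eif5b from 0.48 to -0.28 with quantile normalization). As deposited, Eif1b was called higher in BMDM without BSM replicate 1 and Eif5b without BMDM replicate 2 (limma adjusted p = 0.0432 and 0.0166). Eif6 was at 3.61, 5.46 and 5.06 FPKM in BMDM and 6.74, 1.69 and 1.17 in BSM, with BSM replicate 1 the highest library. It was not called with all libraries (adjusted p = 0.257) and was called higher in BMDM without BSM replicate 1 (limma adjusted p = 0.00469), with a log2 fold change of 0.67 as deposited and -0.33 when every library was given the same sum.

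The subunits of eIF2 itself differed from each other. Eif2s1, the alpha subunit that the stress kinases phosphorylate, was at 10.3, 12.2 and 11.3 FPKM in BMDM and 3.41, 5.71 and 4.22 in BSM, and the groups did not overlap (log2 fold change 1.19, standard error 0.25, limma adjusted p = 0.00492). Eif2s2, the beta subunit, was at 10.4, 9.19 and 9.65 FPKM in BMDM and 11.2, 9.85 and 8.36 in BSM and overlapped fully (log2 fold change -0.0016, adjusted p = 0.996). After quantile normalization Eif2s2 was called higher in BSM (log2 fold change -0.76, adjusted p = 0.0250) and Eif2s1 was not called (adjusted p = 0.147). The log2 ratio of Eif2s1 to Eif2s2 within a library, which no common factor for a library can move, was -0.01, 0.41 and 0.23 in BMDM and -1.71, -0.79 and -0.99 in BSM, with the ratio itself 2.59 times as high in BMDM without overlap (exact two-sided permutation p = 0.1, adjusted p = 0.25 over 10 pairs).

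Among the 4 eIF2 kinases the 2 that passed the FPKM minimum were called higher in BMDM, as were 45.3% of all tested genes. Eif2ak2, the gene of the interferon-induced kinase PKR, was at 16.2, 7.04 and 14.1 FPKM in BMDM and 3.49, 5.27 and 4.49 in BSM (log2 fold change 1.25, standard error 0.33, limma adjusted p = 0.0148). Eif2ak1, the haem-regulated kinase HRI, was at 12.1, 14.2 and 12.8 FPKM in BMDM and 0.108, 3.82 and 3.58 in BSM (log2 fold change 2.27, standard error 0.54, limma adjusted p = 0.00933). BSM replicate 1 was near 0 for Eif2ak1, whose log2 fold change was 1.57 without it and whose span overlaps Aimp2 and Ankrd61. After quantile normalization Eif2ak1 remained called and Eif2ak2 did not (adjusted p = 0.0286 and 0.299). In ALEXA-Seq it was the other way, with Eif2ak1 not called and Eif2ak2 called (limma adjusted p = 0.0531 and 0.0102). Neither kinase was called with upper quartile scaling (0.0810 and 0.303) or the same sum of FPKM (0.167 and 0.834). Eif2ak2 also lost its call without BMDM replicate 1 or 3 (limma adjusted p = 0.0589 and 0.0677). Eif2ak3, the kinase PERK of the endoplasmic reticulum, was not tested and lay at 1.69, 2.50 and 2.03 FPKM in BMDM and 0.666, 0.910 and 0.940 in BSM, without overlap. Eif2ak4, the amino acid sensor GCN2, was at 0.822, 1.00 and 1.17 FPKM in BMDM and 0.0688, 1.36 and 1.60 in BSM, with BSM replicates 2 and 3 above and BSM replicate 1 below all BMDM libraries. The exchange factor eIF2B was weakly expressed. Of its 5 subunit genes only Eif2b3 passed the minimum, without a call (adjusted p = 0.411), and its sign changed with scaling, from 0.46 as deposited to -0.45 after quantile normalization. No subunit exceeded 3.53 FPKM in any library, and Eif2b1, Eif2b2 and Eif2b5, all under the minimum, had every BMDM library above every BSM library. Of all tested genes 66.8% did not overlap in either direction, and no such share was computed for genes under the minimum.

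Cap binding and helicase genes ranged from clear differences to none. Of 11 tested, 6 were called higher in BMDM as deposited, beside 45.3% of all tested genes. After quantile normalization 4 were called higher in BMDM and 1, Eif4a1, higher in BSM, beside 21.7% and 19.3% of all tested genes. Eif4b, which stimulates the helicase, was at 19.8, 33.1 and 23.6 FPKM in BMDM and 4.26, 4.87 and 5.01 in BSM, with 5.41 times as much in BMDM by group means (log2 fold change 2.18, standard error 0.26, limma adjusted p = 0.000347). Eif4h, its smaller relative, was at 6.63, 7.32 and 7.64 FPKM in BMDM and 1.29, 2.78 and 2.41 in BSM (log2 fold change 1.40, standard error 0.26, limma adjusted p = 0.00327). The scaffold-like Eif4g2, which lacks the eIF4E binding site, was at 114, 138 and 125 FPKM in BMDM and 59.1, 45.1 and 36.8 in BSM (log2 fold change 1.43, standard error 0.24, limma adjusted p = 0.00205). None of these 3 overlapped between the groups. Eif4e3 was at 13.1, 11.3 and 15.6 FPKM in BMDM and 0.160, 1.88 and 2.44 in BSM (log2 fold change 2.66, standard error 0.41, limma adjusted p = 0.00137). In the files its locus spans 9.83 times the length that GENCODE M21 gives it and overlaps Foxp1, so reads of the neighbour could have been counted to it. Of the 63 members, 14 have a span that overlaps another gene with an FPKM of at least 1. Eif4a3, a helicase of the exon junction complex, was at 5.61, 8.15 and 7.76 FPKM in BMDM and 0.642, 2.46 and 3.52 in BSM (log2 fold change 1.45, standard error 0.39, limma adjusted p = 0.0154), and it was not called after quantile normalization or without BMDM replicate 2 or 3 (limma adjusted p = 0.0663 and 0.0637).

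The core genes of eIF4F had log2 fold changes from -0.14 to 0.69, all below the median of all tested genes. Eif4e, the cap-binding protein, was at 6.74, 8.97 and 9.86 FPKM in BMDM and 5.44, 4.37 and 4.82 in BSM and was called as deposited (log2 fold change 0.69, standard error 0.24, limma adjusted p = 0.0402), but its sign turned to -0.06 after quantile normalization and the call was lost without BMDM replicate 2 or 3 or BSM replicate 2 or 3 (limma adjusted p from 0.0976 to 0.157). ALEXA-Seq did not call Eif4e (limma adjusted p = 0.195). The alternative cap-binding gene Eif4e2 was at 13.7, 16.0 and 15.6 FPKM in BMDM and 12.3, 14.8 and 11.95 in BSM, overlapping and not called (adjusted p = 0.452). The scaffolds Eif4g1 and Eif4g3 overlapped as well, with 9.18, 11.7 and 12.4 FPKM in BMDM and 10.9, 5.43 and 5.28 in BSM for the former and 20.4, 13.2 and 15.8 FPKM in BMDM and 15.5, 9.66 and 8.07 in BSM for the latter. Neither scaffold was called with all libraries, and without BSM replicate 1, which lay above the other BSM libraries for both, they were called higher in BMDM (limma adjusted p = 0.00640 and 0.0193). The helicase Eif4a1 was at 10.9, 11.9 and 13.2 FPKM in BMDM and 10.4, 14.0 and 10.3 in BSM (log2 fold change 0.06). Its paralog Eif4a2, among the most abundant members, was at 81.0, 91.1 and 104 FPKM in BMDM and 62.2, 135 and 123 in BSM (log2 fold change -0.14), in a span that overlaps 4 other genes, Rfc4 among them. Both helicases overlapped between the groups as deposited, and by rank both lay higher in every BSM library. For Eif4a2 that separation was narrow, with percentile 97.91 in BSM replicate 1 against 97.88 in BMDM replicate 3. Without BSM replicate 1, the lowest BSM library for Eif4a2, that gene was called higher in BSM (log2 fold change -0.49, limma adjusted p = 0.0488). Eif4a1, Eif4a2 and Eif4e2 were called higher in BSM once all libraries had the same sum (log2 fold change -1.16, -1.45 and -1.03). Eif4e2, Eif4g1, Eif4g3 and Eif4a1 were positive as deposited and negative under the other 3 scalings.

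Repressors of eIF4E differed in level. Eif4ebp2 was at 13.9, 14.8 and 16.5 FPKM in BMDM and 0.108, 4.42 and 2.53 in BSM, with BSM replicate 1 far below its group (log2 fold change 2.53, standard error 0.53, limma adjusted p = 0.00543). Its log2 fold change was 1.87 without that library, and it remained called after quantile normalization (adjusted p = 0.0137). Eif4ebp1 was scarce, at 0.529, 0.274 and 0.693 FPKM in BMDM and 0, 0.115 and 0.183 in BSM, and was not tested. Eif4enif1, the shuttling protein that carries eIF4E into the nucleus, was called as deposited (log2 fold change 1.36) and not after quantile normalization (adjusted p = 0.202).

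The Argonaute genes under their older symbols held the other member called toward BSM. Eif2c1 (chr4:126112256-126145878) was at 1.80, 2.77 and 1.72 FPKM in BMDM and 3.60, 4.26 and 3.76 in BSM, and every BSM library lay above every BMDM library (log2 fold change -0.67, standard error 0.24, limma adjusted p = 0.0485). Its percentiles among the tested genes were 16.2, 18.3 and 12.4 in BMDM and 57.9, 58.8 and 55.8 in BSM. The call as deposited was close to the threshold and was lost without BMDM replicate 1 or 3 or BSM replicate 2 or 3 (limma adjusted p from 0.1201 to 0.173) and also when genes down to an FPKM of 1 (0.0512) or all genes (0.0683) were tested, with 0.1 as pseudocount (0.0666) and in female libraries only (0.0638), while ALEXA-Seq and the other 3 scalings kept it. Eif2c3 was at 2.29, 1.13 and 2.07 FPKM in BMDM and 1.83, 3.85 and 3.96 in BSM, overlapping and not called as deposited (adjusted p = 0.179). It was called higher in BSM after quantile normalization (log2 fold change -1.36, adjusted p = 0.00577), in ALEXA-Seq (adjusted p = 0.0473) and without BSM replicate 1 (0.0279). Eif2c2, the Argonaute that cuts its targets, was at 1.56, 0.442 and 1.44 FPKM in BMDM and 0.0389, 0.453 and 0.429 in BSM, and Eif2c4 at 1.68, 0.920 and 1.15 FPKM in BMDM and 0.0358, 0.823 and 1.14 in BSM. These were under the FPKM minimum, with overlapping groups.

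The remaining genes were Eif1ay, an X-linked gene of eIF1A now named Eif1ax, and Eif5al3, an Eif5a-like copy annotated as a pseudogene. Eif1ay was at 4.71, 6.24 and 5.26 FPKM in BMDM and 4.34, 2.16 and 1.48 in BSM (log2 fold change 0.88, standard error 0.32, limma adjusted p = 0.0492), close to the threshold, and its sign changed after scaling to the same sum (-0.15). Eif5al3 was at 3.33, 4.91 and 4.03 FPKM in BMDM and 0, 0.240 and 0.681 in BSM (log2 fold change 1.98, standard error 0.30, limma adjusted p = 0.00129). It is near-identical to Eif5a and was listed at 0 in every library by ALEXA-Seq, so its FPKM cannot be told apart from reads of Eif5a.

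**Figure D3:**
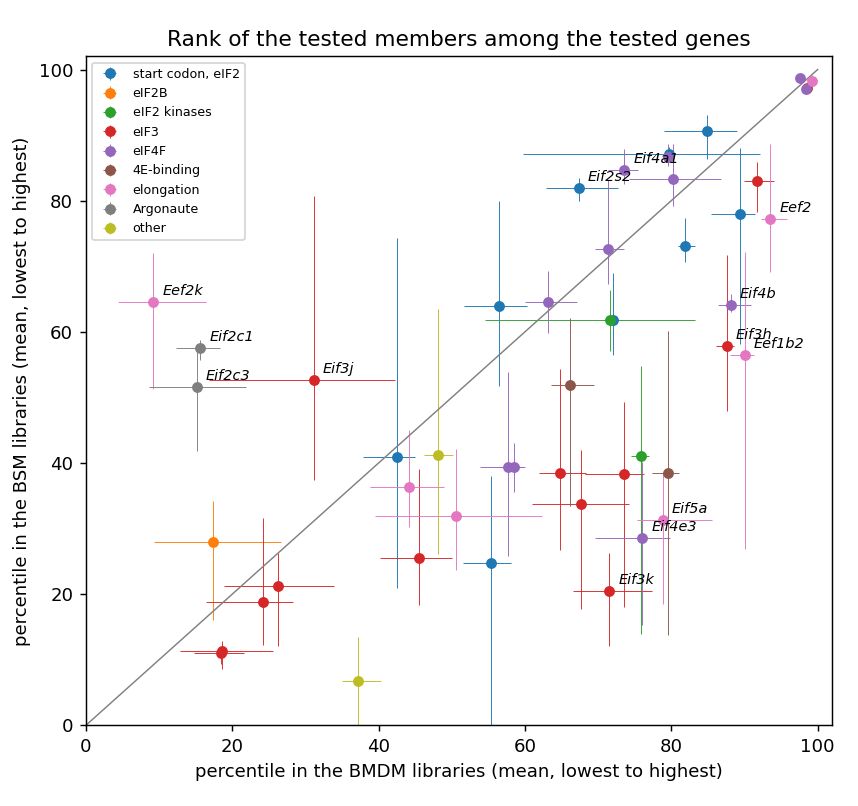
Percentile of each of the 49 tested members among the 6364 tested genes, in the BMDM libraries (horizontal) and the BSM libraries (vertical), as the mean with lines from the lowest to the highest library. Eef2k, Eif2c1 and Eif2c3 stand far above the line of equal rank, and Eif3k, Eif5a and Eif4e3 far below it.

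Ratios of paralogs or partners within a library ask whether members changed unequally, whatever factor a library is scaled by. Of 26 pairs, 10 had both genes at an FPKM of at least 1 in every library, and 4 of these did not overlap between the groups, each with an exact two-sided permutation p = 0.1, the smallest possible, and an adjusted p of 0.25 over the 10 pairs. The log2 ratio of Eef1a1 to Eef2 was 2.32, 2.24 and 2.27 in BMDM and 3.11, 3.18 and 3.27 in BSM. It varied by an SD of 0.0444 in BMDM and 0.0789 in BSM while the genes themselves varied widely, and the ratio itself was 1.88 times as high in BSM. In ALEXA-Seq the same log2 ratio was 1.78, 1.72 and 1.88 in BMDM and 1.86, 2.30 and 2.46 in BSM, so that the groups overlapped there. The log2 ratio of Eif4g1 to Eif4g2 was -3.64, -3.56 and -3.34 in BMDM and -2.44, -3.05 and -2.80 in BSM, higher in every BSM library in this table and in ALEXA-Seq. That of Eif4e to Eif4e2 was -1.03, -0.83 and -0.66 in BMDM and -1.18, -1.76 and -1.31 in BSM, lower in every BSM library, with overlap in ALEXA-Seq. The Eif2s1 to Eif2s2 ratio given above was also without overlap in ALEXA-Seq, at 0.24, 0.76 and 0.43 in BMDM and -0.14, -0.21 and -0.44 in BSM. The other 6 pairs overlapped in FPKM. The log2 ratio of Eif4a1 to Eif4a2 was -2.89, -2.94 and -2.98 in BMDM and -2.57, -3.27 and -3.58 in BSM, and in ALEXA-Seq, where it did not overlap, -1.58, -1.19 and -1.76 in BMDM and -2.00, -2.35 and -2.82 in BSM. The exact permutation p of the 6 pairs lay between 0.300 and 0.900.

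**Figure D4:**
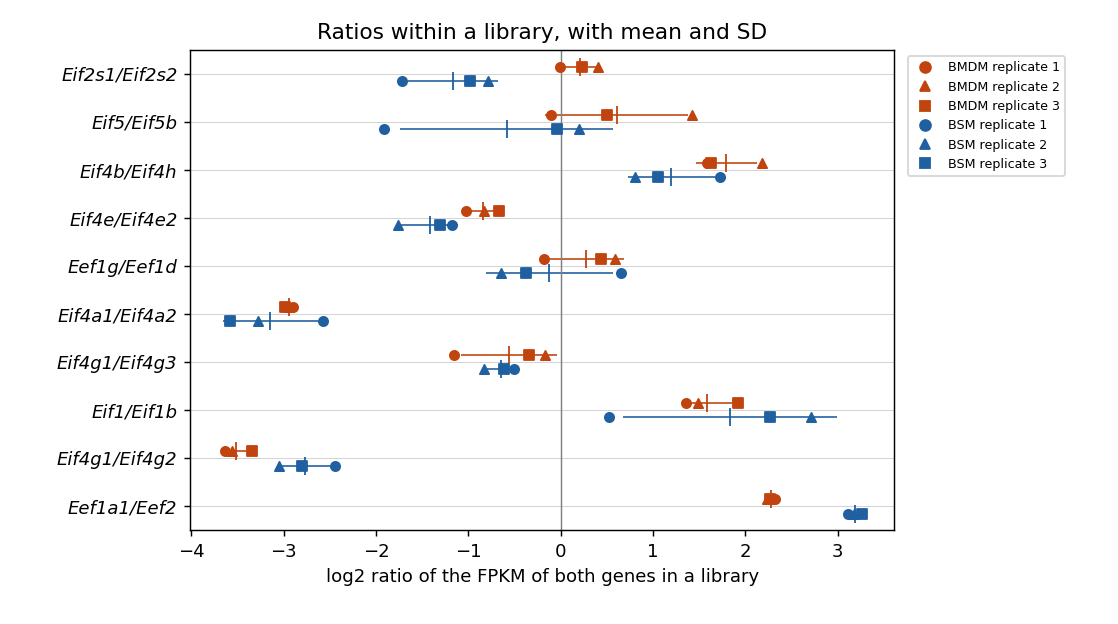
Log2 ratio of the FPKM of both genes of a pair in each library, for the 10 pairs with an FPKM of at least 1 throughout, with group means (ticks) and SD (lines). Eif2s1/Eif2s2, Eif4e/Eif4e2, Eif4g1/Eif4g2 and Eef1a1/Eef2 separate the BMDM libraries from the BSM libraries.

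Other genes of translation were counted beside the members, whole lists at a time. The counts are to be read beside all tested genes, of which 45.3% were called toward BMDM and 9.22% toward BSM as deposited. After quantile normalization these shares were 21.7% and 19.3%. Of the 79 ribosomal protein genes 49 passed the FPKM minimum, with 38 of these called toward BMDM and 0 toward BSM as deposited (median log2 fold change 1.65), and 24 and 3 after quantile normalization. Of 17 tested aminoacyl-tRNA synthetases, 8 were called toward BMDM and 0 toward BSM as deposited, and 3 and 5 after quantile normalization. Poly(A) binding genes had 3 of 5 tested higher in BMDM as deposited and 1 after quantile normalization, led by Pabpc1 at 338, 318 and 444 FPKM in BMDM and 41.6, 58.9 and 62.1 FPKM in BSM. Of 6 tested termination and rescue genes 1, the release factor Etf1, was called, higher in BMDM, also after quantile normalization. Of 6 tested genes of mTOR and the eIF4E kinases none was called higher in BMDM and 1, Rptor, a subunit of mTOR complex 1, higher in BSM, at 0.729, 0.890 and 1.15 FPKM in BMDM and 4.64, 3.44 and 3.65 FPKM in BSM (log2 fold change -1.35, limma adjusted p = 0.00301), with the same counts after quantile normalization. In the integrated stress response Ppp1r15b was called higher in BMDM and Ppp1r15a, both phosphatase subunits for eIF2 alpha, higher in BSM, out of 4 tested. After quantile normalization 0 of the 4 were called toward BMDM and 2, Ppp1r15a and the transcription factor gene Atf4, toward BSM. Hypusine and diphthamide enzymes had 1 of 2 tested, Dph3, higher in BMDM, and after quantile normalization 1 in each direction. Of 5 tested mitochondrial translation factors Gfm1 was called toward BMDM and Gfm2 toward BSM, and after quantile normalization only Gfm2 was called (adjusted p of Gfm1 = 0.708).

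BSM replicate 1, the library that stood apart, was low for many members. Of the 49 tested members, 12 (24.5%) lay in BSM replicate 1 at less than 0.1 of the mean of the other BSM libraries, as did 14.5% of all tested genes. Leaving it out changed the count of calls to 38 members toward BMDM and 4 toward BSM, beside 50.2% and 11.6% of all tested genes. With quantile normalization as well, an alternative chosen after the values were seen, 23 and 8 were called, beside 25.8% and 24.8%. The median coefficient of variation of the tested members was 20.6% in BMDM and 45.9% in BSM, against 23.8% and 42.3% for all tested genes.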

How the data were processed

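RNA-Seq was analysed for 3 BMDM and 3 BSM libraries, grouped by the labels. Per the labels and methods, RNA of sorted pools was amplified with the Ovation method and sequenced on HiSeq. The submitters' processing notes name CASAVA 1.7.0, TopHat 1.3.1, Bowtie 0.12.7, Cufflinks 1.0.3 and mm9. The authors deposited FPKM per gene (Cufflinks) and an ALEXA-Seq expression signal whose unit is not given in the sources used here. No read counts of genes were used, so the depth of each value is unknown and no counting interval is given. File starts count from 0 and are printed from 1.

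The members and lists were chosen with earlier results of these data known. The 6364 genes that reached an FPKM of 3 in 1 library or more were compared on log2(FPKM + 1) with limma 3.58.1 (with a mean-variance trend, in R 4.3.3), BSM against BMDM with no other term, and Benjamini-Hochberg adjustment over all of them with a threshold of 0.05. As many genes, those of highest maximum signal, were tested alike in the ALEXA-Seq table. The fit was tested on simulated data. Named with values in every library are the 5 most abundant members, the 10 with the largest fold change among those called higher in BMDM in both tables, those called higher in BSM or called in the opposite direction after quantile normalization, and the members of the ratio pairs. Other genes were named for their role or after their values were seen. Ratio pairs were compared by exact two-sided permutation tests. Near-identical copies (at least 95% identity over at least 100 bases and 50% of the transcript) were sought with BLAST+ 2.17.0 in GENCODE M21 transcripts. Promoters came from RefSeq (GRCm38.p6), matched by symbol. Python 3.11.15, pandas 2.3.3, SciPy 1.17.1, statsmodels 0.14.6 and matplotlib 3.10.9 were used. Alternatives were other pseudocounts, FPKM minimums and scalings, no trend, library weights, a replicate block, leaving out each library, the ALEXA-Seq table and, chosen after seeing the data, quantile normalization without BSM replicate 1 and female libraries only.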

Additional observations from a re-analysis of the deposited data

How the results depend on the processing

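The number of members called, 36, came to 23 with no FPKM minimum, 19 with upper quartile scaling, 22 with quantile normalization and 14 with the same sum of FPKM. Over all genes the calls, 3470 of 6364, came to 3876 of 21167 with no minimum. With the 3 scalings in that order they came to 2430, 2605 and 2553 of 6364. The number higher in BMDM, 34, came to 12, 17 and 6 with these 3 scalings. For upper quartile scaling the calls over all genes were not split by direction. The number higher in BSM, 2, came to 1 with a pseudocount of 0.1 or an FPKM minimum of 1, 0 with no minimum, 7, 5 and 8 with the 3 scalings, 4 with library weights and 8 with quantile normalization without BSM replicate 1, which was chosen after seeing the data. The median log2 fold change of the members, 1.28, came to 1.67 with a pseudocount of 0.1, 1.07 with no minimum, 1.15 with weights, 0.67, 0.50 and 0.29 with the 3 scalings, and 0.39 with quantile normalization without BSM replicate 1. ALEXA-Seq calls fell from 33 to 12 with the same sum of values.

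Leaving out each library in turn gave 24 to 42 members called, 24 to 38 higher in BMDM, 0 to 4 higher in BSM, a median of 1.12 to 1.41, 17 to 43 ALEXA-Seq calls and 2498 to 3932 calls among all genes (3470 with all libraries). The lowest count of members was without BMDM replicate 3 and the highest without BSM replicate 1. The difference of the log2 ratio within a library ranged from 0.14 to 0.79 for Eef1g/Eef1d, -0.95 to -0.87 for Eef1a1/Eef2, -0.014 to 0.49 for Eif4a1/Eif4a2, 0.40 to 0.70 for Eif4e/Eif4e2, -0.89 to -0.59 for Eif4g1/Eif4g2, -0.10 to 0.39 for Eif4g1/Eif4g3, -0.90 to 0.19 for Eif1/Eif1b, 1.10 to 1.56 for Eif2s1/Eif2s2, 0.41 to 0.86 for Eif4b/Eif4h and 0.53 to 1.58 for Eif5/Eif5b. That of Eif4a1/Eif4a2 reversed without BSM replicate 3, those of Eif4g1/Eif4g3 without BMDM replicate 2 (-0.10) or 3 (-0.01), and that of Eif1/Eif1b without BSM replicate 2 (0.19) and in ALEXA-Seq (0.29).

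Log2 fold changes that reversed with upper quartile scaling, quantile normalization and the same sum of FPKM, in that order, were those of Eif1 (-0.67, -0.61 and -1.11), Eif1b (-0.40, -0.34 and -0.81), Eif2b3 (-0.033, -0.45 and -0.30), Eif4a1 (-0.73, -0.70 and -1.16), Eif4e (-0.055, -0.059 and -0.46), Eif4e2 (-0.60, -0.54 and -1.03), Eif4g1 (-0.15, -0.11 and -0.57), Eif4g3 (-0.23, -0.20 and -0.67) and Eif5b (-0.31, -0.28 and -0.75). With the same sum alone, Eif1ay (-0.15) and Eif6 (-0.33) reversed. With quantile normalization without BSM replicate 1, Eif1 (-0.88), Eif4a1 (-0.77), Eif4e2 (-0.61) and Eif5b (-0.29) reversed. Eif1 reversed without BMDM replicate 3 (-0.05) or BSM replicate 1 (-0.079; range to 0.44), Eif4a1 with library weights (-0.0036) and without BMDM replicate 3 (-0.0086), BSM replicate 1 (-0.0037) or BSM replicate 3 (-0.0124), and Eif4a2 without BSM replicate 2 (0.064; range from -0.49) or 3 (3.5e-05). Eif2s2, at -0.0016 as deposited, reversed with weights (0.057), in female libraries only, chosen after seeing the data (0.048), in ALEXA-Seq (0.30) and without BMDM replicate 2 (0.04) or 3 (0.0033) or BSM replicate 1 (0.090) or 2 (0.0059). The cause of these changes was not tested.

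Deviations of libraries with the same replicate number correlated at -0.02, -0.01 and 0.13, so the numbers were not taken to pair the samples. With a replicate block 33 members were called, 32 toward BMDM and 1 toward BSM, beside 3471 of all genes. Among members given with values in every library the block ended the calls of Eif2c1 and Eif4e (limma adjusted p = 0.0613 and 0.0686).

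FPKM without counts gives no depth, and values near 0 in BSM replicate 1 cannot be told apart from missed transcripts. Exact tests of 3 against 3 cannot go below p = 0.1.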
